A study of Homo sapiens with 24 samples.

Results

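Notch receptors are proteins of the cell surface that are activated by ligands on a neighbouring cell. Ligand binding exposes the receptor to cleavage by ADAM proteases and then by gamma-secretase, and the intracellular domain that is set free enters the nucleus. There it joins the DNA-binding protein RBPJ and a Mastermind coactivator and switches on target genes, among them the HES and HEY repressors and the feedback inhibitor NRARP. In airway and lung epithelium the pathway is known for its part in the choice between secretory and other cell fates.

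The 10 genes described here are the receptors NOTCH1, NOTCH2 and NOTCH3, the ligands JAG1 and JAG2, the glycosyltransferase LFNG, and the target genes HES1, HES4, HEY1 and NRARP. They were chosen by name, and the counts of all their transcripts in the deposited table were added up for each gene. They are 10 of 33086 genes in the summed table, and all 10 were among the 15325 genes that passed the filter on low counts. The cells were A549, an established human line from a lung adenocarcinoma, and the labels name no edit or transgene for any group. Cells of the dex groups were exposed to 100 nM dexamethasone (dex), a synthetic glucocorticoid (GC) that activates the glucocorticoid receptor (GR), dissolved in ethanol. Cells of the EtOH groups received the vehicle alone, at 0.02% of the medium by volume. Poly-A RNA was sequenced after 1, 3, 5, 7, 9 and 11 h, with 2 libraries for each of the 12 groups and 24 in all. The duration label of the samples gives these 6 times, although the treatment text of every sample says 1 h. The labels number the 2 libraries of a group as biological replicates, and the p-values below measure the spread between such libraries. The values come from whole cultures, so fewer cells of a kind and less RNA per cell cannot be told apart.

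Library totals ran from 6708864 to 13748598 counts, with a median of 10109393.5, and the lowest belonged to dex at 1 h. The biological coefficient of variation, the spread between replicates beyond counting error, was lowest at 7 h (6.49%) and highest at 11 h (12.7%). The 10 A549 and epithelial markers together held 23941 to 30667 of 1000000 counts scaled to library size (counts per 1000000, CPM), and the defining markers of fibroblasts, endothelium and blood summed to at most 26.9, 1.06 and 9.37 CPM in any library. Of 4 known GC targets, TSC22D3, PER1 and KLF9 rose with dex at all 6 times and FKBP5 at 5 of them. The difference between dex and EtOH also depended on base composition. Across the 15325 genes tested, the Spearman correlation of the log2 fold change with the share of G and C bases (G+C content) was -0.24 at 1 h, 0.30 at 3 h, 0.10 at 5 h, 0.17 at 7 h, -0.24 at 9 h and 0.23 at 11 h. The genes of one comparison share the same 4 libraries, so these are descriptions. NOTCH1 (62.9% G+C), NOTCH3 (63.1%), JAG2 (64.0%), NRARP (67.3%) and HES4 (74.0%) lie above at least 93.3% of the tested genes in this measure, and their values are given with and without a G+C correction wherever it changed a call.

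HES1 and HES4 are close relatives in the HES family, and of the 10 genes only HES1 was called at 1 h. Their promoter letters are shown because both hold the core of the RBPJ motif while only HES1 was called. The sequences are the 250 bases before the RefSeq start, from build GRCh38.p14. The HES1 window lies at chr3:194135898-194136147 on the plus strand and the HES4 window at chr1:1000098-1000347 on the minus strand. Capitals mark the RBPJ core TGGGAA and the N-box CACNAG, a motif bound by HES proteins, on either strand.
HES1: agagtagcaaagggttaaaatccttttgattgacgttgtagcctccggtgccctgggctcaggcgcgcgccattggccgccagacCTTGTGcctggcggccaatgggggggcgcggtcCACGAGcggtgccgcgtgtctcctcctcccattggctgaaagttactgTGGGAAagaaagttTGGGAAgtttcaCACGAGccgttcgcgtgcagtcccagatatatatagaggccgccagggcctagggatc
HES4: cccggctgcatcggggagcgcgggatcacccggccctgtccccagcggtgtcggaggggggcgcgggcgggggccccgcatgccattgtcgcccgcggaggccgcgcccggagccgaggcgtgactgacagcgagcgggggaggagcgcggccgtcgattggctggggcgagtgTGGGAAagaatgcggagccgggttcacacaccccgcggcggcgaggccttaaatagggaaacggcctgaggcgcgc

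The HES1 window holds 2 RBPJ cores, whose first bases lie 84 and 70 bases before the start, and 3 N-boxes, whose first bases lie 165, 132 and 58 bases before it. The HES4 window holds 1 RBPJ core, 76 bases before the start, and no N-box. Of 35116 promoter windows of 300 bases (250 before and the rest after the start), 24% hold TGGGAA and 38% hold CACNAG on either strand, so neither is rare. RefSeq windows were found for 9 of the 10 genes. Each LFNG window also holds TGGGAA, while the window of NRARP, a target called lower, does not. None of the windows of these 9 genes holds the GR palindrome, GNACA and TGTNC with 3 free bases between them (0.39% of all windows), its half-site AGAACA (14.8%) or the E-box CACGTG (7.26%), searched on both strands. A match is a match of letters, and the absence of one covers these 300 bases only. No overlap occurs between the motifs shown in capitals.

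Per kilobase of transcript, JAG1 was by far the most abundant of the 10 genes. With EtOH it stood at 91.3 ± 2.98 CPM per kilobase (mean ± SD, n = 12 libraries), followed by NOTCH2 (13.5 ± 0.831), HES1 (10.8 ± 0.993), NOTCH3 (4.61 ± 0.652), JAG2 (3.52 ± 0.625), NRARP (2.55 ± 0.518), HES4 (2.30 ± 0.757), LFNG (2.12 ± 0.333), NOTCH1 (1.55 ± 0.231) and HEY1 (0.450 ± 0.204). The libraries of JAG1 (86.7 to 96.5) did not overlap those of NOTCH2 (11.7 to 14.6), nor those of HES1 (9.10 to 12.3) those of NOTCH3 (3.38 to 5.65), nor those of NOTCH1 (1.23 to 1.97) those of HEY1 (0.165 to 0.863). All other neighbours in this order overlapped. HES4 had 8 to 47 counts per library and HEY1 4 to 19, so both rest on few reads.

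**Figure D1:**
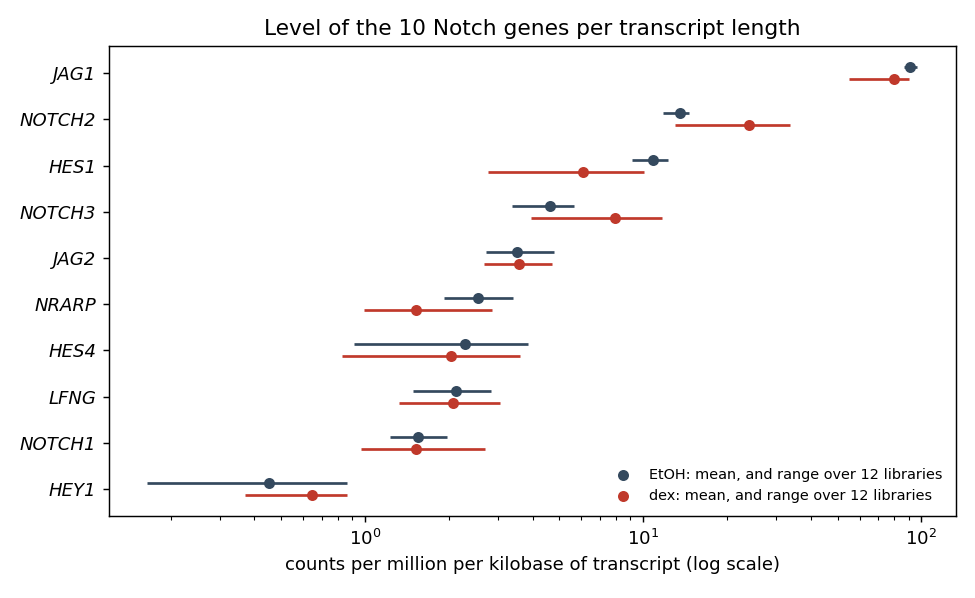
Points are the mean CPM per kilobase of transcript (log scale) of each of the 10 genes over 12 EtOH (dark) and 12 dex (red) libraries, and lines run from the lowest to the highest library. JAG1 stands alone at the top with 91.3 with EtOH, and HEY1 at the bottom with 0.450.

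Among the receptors, NOTCH2 and NOTCH3 were higher with dex from 3 h to 11 h, while NOTCH1 was not changed in one lasting direction. A gene is called higher or lower where its adjusted p from edgeR was at most 0.1 over all 15325 genes, with 2 dex against 2 EtOH libraries at each time. At 1 h NOTCH2, the most abundant receptor here, had 152 and 145 CPM with dex and 145 and 150 CPM with EtOH. The groups overlapped at that time, and the log2 fold change was 0.01 ± 0.11 (SE). At 3 h the dex libraries had 246 and 221 CPM and the EtOH libraries 157 and 151 CPM. At 5 h they had 299 and 249 CPM with dex against 130 and 138 CPM with EtOH. The groups no longer overlapped from 3 h on, and the gap between the means was widest at 7 h. At 7 h NOTCH2 had 325 and 374 CPM with dex against 161 and 157 CPM with EtOH. The 7 h means differed 2.20-fold, with a log2 fold change of 1.15 ± 0.08 (edgeR adjusted p = 1.17e-13). At 9 h there were 299.5 and 283 CPM with dex against 153 and 144 CPM with EtOH, and at 11 h 286 and 302 CPM against 157 and 158 CPM. The fold change therefore stayed near its 7 h size, at 0.99 ± 0.11 at 9 h and 0.92 ± 0.13 at 11 h on the log2 scale (adjusted p = 3.02e-05 and 0.000541). The EtOH libraries stayed between 130 and 161 CPM over the whole course.

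The rise of NOTCH2 between 1 and 3 h was itself past the threshold (difference of the log2 fold changes 0.59 ± 0.14, adjusted p = 0.0112), and so was the further rise between 3 and 5 h (0.43 ± 0.14, adjusted p = 0.0712). The step from 5 to 7 h did not pass (0.11 ± 0.14, edgeR adjusted p = 0.997). In the tests of neighbouring steps, 4.89% of all genes changed their dex effect from 1 to 3 h and 7.02% from 3 to 5 h. Both NOTCH2 transcripts in the table were higher with dex from 3 to 11 h, but not by the same amount at each time. The main one, ENST00000256646.2, held 95.2% of the counts, with a log2 ratio of 1.13 at 7 h, and ENST00000602566.1 had 1.16. At 3 h the main one had 0.55 and the other 1.52, and at 9 h 0.95 and 1.42. NOTCH2 (chr1:119911553-120069626 on the minus strand, GRCh38, GENCODE release 29) has a near-identical partial copy, NOTCH2NLA, from which short reads cannot be fully separated. That copy had 15 to 78 counts per library against 955 to 3781 for NOTCH2. The NOTCH2 calls from 3 to 11 h held under all 12 alternatives run at each time.

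NOTCH3, a receptor best known from vascular smooth muscle, had 28.6 and 37.4 CPM with dex and 27.9 and 34.8 CPM with EtOH at 1 h, and the groups overlapped. At 3 h it had 76.6 and 57.2 CPM with dex against 29.1 and 35.8 CPM with EtOH, a 2.06-fold difference of the means (log2 fold change 1.04 ± 0.14, edgeR adjusted p = 7.82e-06). Every later dex library was also above both EtOH libraries of its time. The later log2 fold changes were 0.61 ± 0.13 at 5 h, 0.94 ± 0.11 at 7 h, 0.84 ± 0.14 at 9 h and 1.01 ± 0.17 at 11 h, with adjusted p values from 6.4e-08 at 7 h to 0.00224 at 11 h in edgeR. The dex mean was highest at 11 h (73.9 CPM, from libraries of 63.2 and 84.5 CPM), against 36.3 and 38.0 CPM with EtOH. The lower of these dex libraries lay below the higher one of 3 h (76.6 CPM). All 4 NOTCH3 transcripts were higher with dex at 3 h, with log2 ratios of 0.82 to 1.18. With 1 library a group the NOTCH3 call was lost at 3 h without replicate 1 (log2 0.68, adjusted p = 0.157), at 5 h without replicate 1 or 2 (adjusted p = 0.151 and 0.184) and at 9 h without replicate 2 (log2 0.57, adjusted p = 0.217). With the G+C correction the values were 0.83 at 3 h and 0.53 at 5 h and stayed past the threshold.

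NOTCH1 gave opposite calls at 3 h and 9 h. At 3 h it had 25.0 and 17.2 CPM with dex against 14.1 and 12.7 CPM with EtOH (log2 fold change 0.66 ± 0.17, edgeR adjusted p = 0.0124). At 9 h it had 9.73 and 11.3 CPM with dex against 13.6 and 18.3 CPM with EtOH (log2 fold change -0.56 ± 0.20, adjusted p = 0.0761). The 2 groups did not overlap at either time, but the dex libraries of 11 h alone, at 11.6 and 24.2 CPM, spanned more than the range of all 12 EtOH libraries (11.5 to 18.3 CPM). The dex effect on NOTCH1 did not differ between times past the threshold (adjusted p = 0.265 for the 5 treatment-by-time terms). With the G+C correction the 3 h value was 0.45 (adjusted p = 0.0855) and the 9 h value -0.38 (adjusted p = 0.169). Without replicate 1 or 2 neither call was made (log2 0.44 and 0.83 at 3 h, -0.70 and -0.48 at 9 h), nor in the fit over 24 libraries (adjusted p = 0.181 and 0.196) or, at 9 h, with DESeq2 (adjusted p = 0.203).

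**Figure D2:**
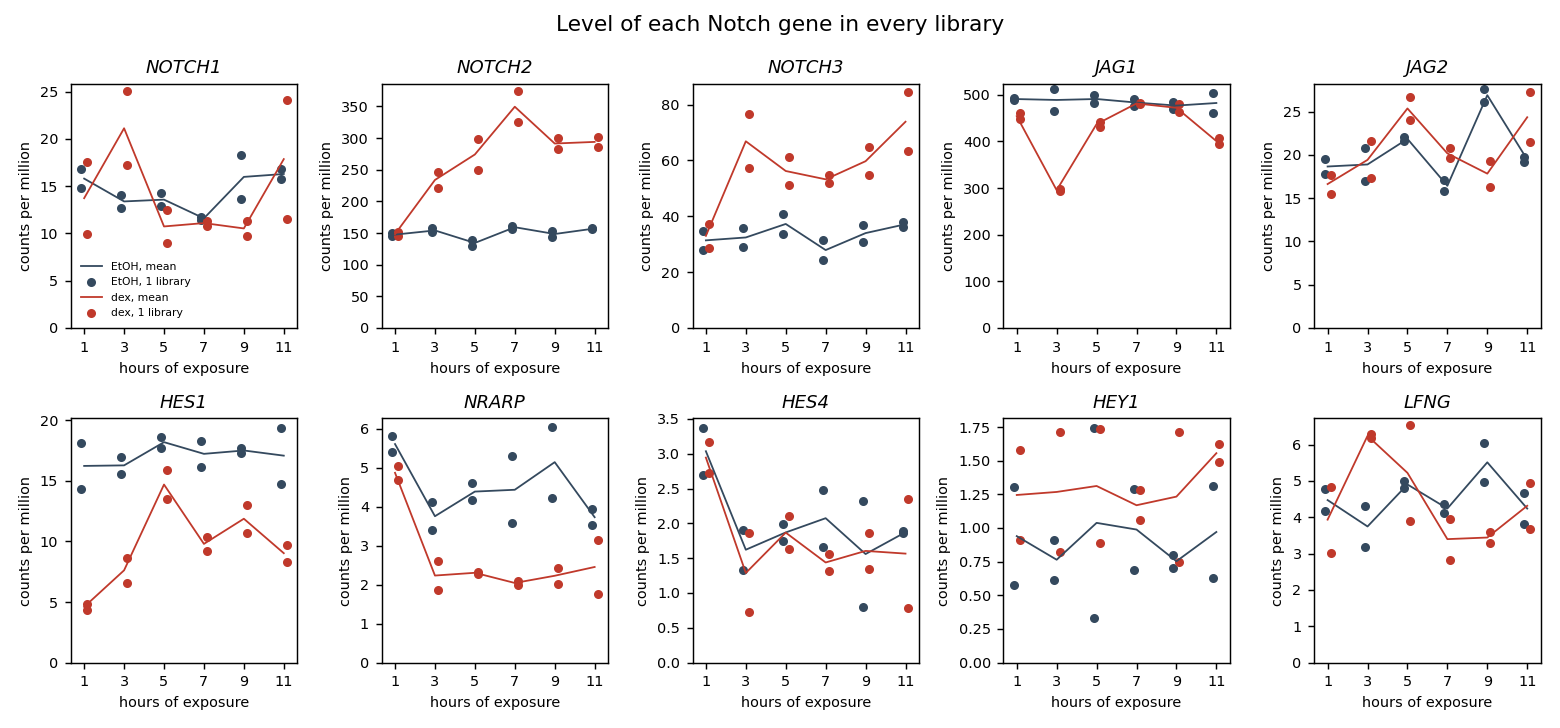
Each panel shows CPM (linear axis from 0) against hours of exposure for 1 gene, with 1 point per library and lines through the mean of the 2 libraries of a group (dex red, EtOH dark). NOTCH2 separates from 3 h on while its EtOH libraries stay between 130 and 161, HES1 is low in both dex libraries at 1 h (4.35 and 4.84), and JAG1 is lowest with dex at 3 h (293 and 298).

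The ligand JAG1 was called lower at 3 h, in the fits of single time points at no other time, and was back near its EtOH level at 5 h. At 3 h it had 293 and 298 CPM with dex against 513 and 465 CPM with EtOH. Both dex libraries lay below every other JAG1 value in the series, of which the next lowest was 395 CPM. The means differed 1.66-fold, with a log2 fold change of -0.72 ± 0.09 (edgeR adjusted p = 2.56e-06). At 1 h the dex libraries had 461 and 447 CPM against 489 and 493 CPM, and at 5 h 442 and 432 CPM against 482 and 500.3 CPM. These groups did not overlap either, but the log2 fold changes, -0.11 ± 0.10 and -0.15 ± 0.10, did not pass the test. At 7 and 9 h dex and EtOH overlapped, with log2 fold changes of 0.01 ± 0.07 and 0.00 ± 0.11. At 11 h the dex libraries were again below, at 395 and 407 CPM against 504 and 461 CPM (-0.25 ± 0.13, adjusted p = 0.352). That difference was called in the fit over 24 libraries (-0.27, adjusted p = 0.0274) and without replicate 2 (-0.35, adjusted p = 0.064).

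The fall of JAG1 from 1 to 3 h (-0.61 ± 0.12, adjusted p = 0.0016) and its return from 3 to 5 h (0.56 ± 0.12, adjusted p = 0.00325) both passed the test of the step. The transcripts ENST00000254958.5 (72.3% of the counts) and ENST00000423891.2 (27.0%) had log2 ratios of -0.77 and -0.61 at 3 h. The EtOH libraries of JAG1 stayed between 461 and 513 CPM. JAG1 has 49.6% G+C, near the middle of the tested genes, and its 3 h call held under all 12 alternatives. The gene (chr20:10637684-10673999, minus strand, GRCh38) shares exon bases with AL050403.2 on the opposite strand, which had at most 10 counts in a library.

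JAG2, the second ligand of the Jagged type, had 16.3 and 19.3 CPM with dex against 26.1 and 27.6 CPM with EtOH at 9 h (log2 fold change -0.56 ± 0.15, edgeR adjusted p = 0.0241). The EtOH libraries of 9 h were high beside the other EtOH libraries of JAG2, of which the highest had 22.0 CPM. At 11 h the order was turned, with 21.5 and 27.2 CPM with dex against 19.8 and 19.1 CPM with EtOH (0.34 ± 0.19, adjusted p = 0.406, and 0.51 with adjusted p = 0.0974 without replicate 1). The change from 9 to 11 h passed the test of the step (0.90 ± 0.21, adjusted p = 0.0735), as for 0.731% of all genes. With the G+C correction the 9 h call was not made (-0.34, adjusted p = 0.116), and it was also lost without replicate 1 (-0.51, adjusted p = 0.121). JAG2 shares exon bases with AL512356.1 on the same strand, which had at most 16 counts in a library against at least 114 for JAG2.

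LFNG, a fringe enzyme that adds N-acetylglucosamine to the O-fucose of Notch receptors and so alters their response to ligands, was called once. At 3 h it had 6.18 and 6.30 CPM with dex against 3.18 and 4.31 CPM with EtOH (log2 fold change 0.72 ± 0.25, edgeR adjusted p = 0.0628). At 9 h the order was turned, with 3.29 and 3.60 CPM against 4.98 and 6.05 CPM (-0.64 ± 0.26, adjusted p = 0.131), a difference that was called in the fit over 24 libraries (-0.66, adjusted p = 0.0949). The groups did not overlap at either time. The 3 h call was lost with the G+C correction (0.58, adjusted p = 0.138), with DESeq2 (adjusted p = 0.342), on the most counted transcript alone (0.92, adjusted p = 0.252) and without replicate 1 or 2 (adjusted p = 0.779 and 0.172).

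Of the 4 target genes, HES1 and NRARP were lower with dex, and HES4 and HEY1 were not called at any time. HES1 encodes a repressor that also acts on its own promoter. At 1 h it had 4.35 and 4.84 CPM with dex (44 and 32 counts) against 14.4 and 18.1 CPM with EtOH (165 and 252 counts). The dex libraries thus stood far below both EtOH libraries, and the means differed 3.53-fold. The log2 fold change was -1.83 ± 0.22 (edgeR adjusted p = 6.02e-05), which ranked 6 by size among the 64 genes called lower at 1 h. At 3 h the libraries had 8.66 and 6.57 CPM with dex against 16.9 and 15.6 CPM with EtOH (-1.10 ± 0.18, adjusted p = 9.35e-05). At 5 h they had 15.9 and 13.5 CPM against 17.7 and 18.6 CPM, and the difference did not pass the test (-0.30 ± 0.16, adjusted p = 0.224).

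HES1 was lower again at the later times. At 7 h it had 10.3 and 9.25 CPM with dex against 18.3 and 16.2 CPM with EtOH (-0.79 ± 0.16, edgeR adjusted p = 0.000245). At 9 h it had 13.0 and 10.7 CPM against 17.3 and 17.7 CPM (-0.56 ± 0.17, adjusted p = 0.0465), and at 11 h 8.32 and 9.73 CPM against 19.4 and 14.7 CPM (-0.90 ± 0.22, adjusted p = 0.0249). Both dex libraries lay below both EtOH libraries at all 6 times. Of the neighbouring steps, only that from 3 to 5 h passed (0.79 ± 0.25, adjusted p = 0.0673). The step from 1 to 3 h was 0.73 ± 0.28 (adjusted p = 0.172) and that from 5 to 7 h -0.50 ± 0.25 (adjusted p = 0.997). Over the 12 EtOH libraries HES1 stayed between 14.4 and 19.4 CPM. HES1 (chr3:194136145-194138732, plus strand, GRCh38) has 1 transcript in the table, ENST00000232424.3, of 1578 bases and 49.9% G+C. The calls at 1, 3 and 7 h held under all 12 alternatives, the 9 h call was lost with DESeq2 (adjusted p = 0.174) and without replicate 2 (-0.41, adjusted p = 0.413), and the 11 h call without replicate 1 (-0.60, adjusted p = 0.118).

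NRARP encodes an ankyrin-repeat protein that binds the Notch intracellular domain and lowers its amount. It had 5.04 and 4.69 CPM with dex against 5.39 and 5.82 CPM with EtOH at 1 h (-0.20 ± 0.24, adjusted p = 0.966). At 3 h it had 1.85 and 2.61 CPM against 4.11 and 3.40 CPM (-0.72 ± 0.31, adjusted p = 0.153), a difference that passed only with the G+C correction (-0.91, adjusted p = 0.0651). It was called lower from 5 to 9 h. At 5 h it had 2.28 and 2.33 CPM against 4.62 and 4.16 CPM (-0.91 ± 0.30, edgeR adjusted p = 0.0248). At 7 h it had 2.10 and 1.98 CPM against 3.58 and 5.29 CPM (-1.09 ± 0.31, adjusted p = 0.00805). At 9 h it had 2.43 and 2.02 CPM against 6.05 and 4.23 CPM, a 2.31-fold difference of the means (-1.22 ± 0.30, adjusted p = 0.0163). At 11 h the call was not made (1.75 and 3.15 CPM against 3.53 and 3.93 CPM, -0.59 ± 0.35, adjusted p = 0.449).
NRARP thus showed no detectable difference at 1 h, when HES1 was at its lowest, and both dex libraries lay below both EtOH libraries at every time. The dex effect on NRARP did not differ between times past the threshold (edgeR adjusted p = 0.345 for the 5 treatment-by-time terms). A later onset than that of HES1 is therefore not shown. NRARP had only 15 to 81 counts per library. With DESeq2 the 5 and 7 h calls were lost (adjusted p = 0.219 and 0.117), and so were the 5 h call without replicate 1 or 2 (adjusted p = 0.269 and 0.178) and the 7 h call without replicate 2 (-0.74, adjusted p = 0.366).

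HES4 ranged from 0.720 to 3.16 CPM with dex and from 0.800 to 3.37 CPM with EtOH, and its log2 fold changes, from -0.49 to 0.04 with SE of 0.31 to 0.49, did not pass at any time. HEY1, a repressor of the HES-related family, ranged from 0.750 to 1.74 CPM with dex and from 0.333 to 1.74 CPM with EtOH. Its mean was higher with dex at all 6 times, with log2 fold changes of 0.28 to 0.73 and SE of 0.49 to 0.57, and the groups did not overlap at 11 h (1.49 and 1.62 CPM against 0.630 and 1.31 CPM). Neither gene had an unadjusted p under 0.05 at any time in edgeR. With such errors a difference as large as that of NOTCH2 could go undetected.

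**Figure D3:**
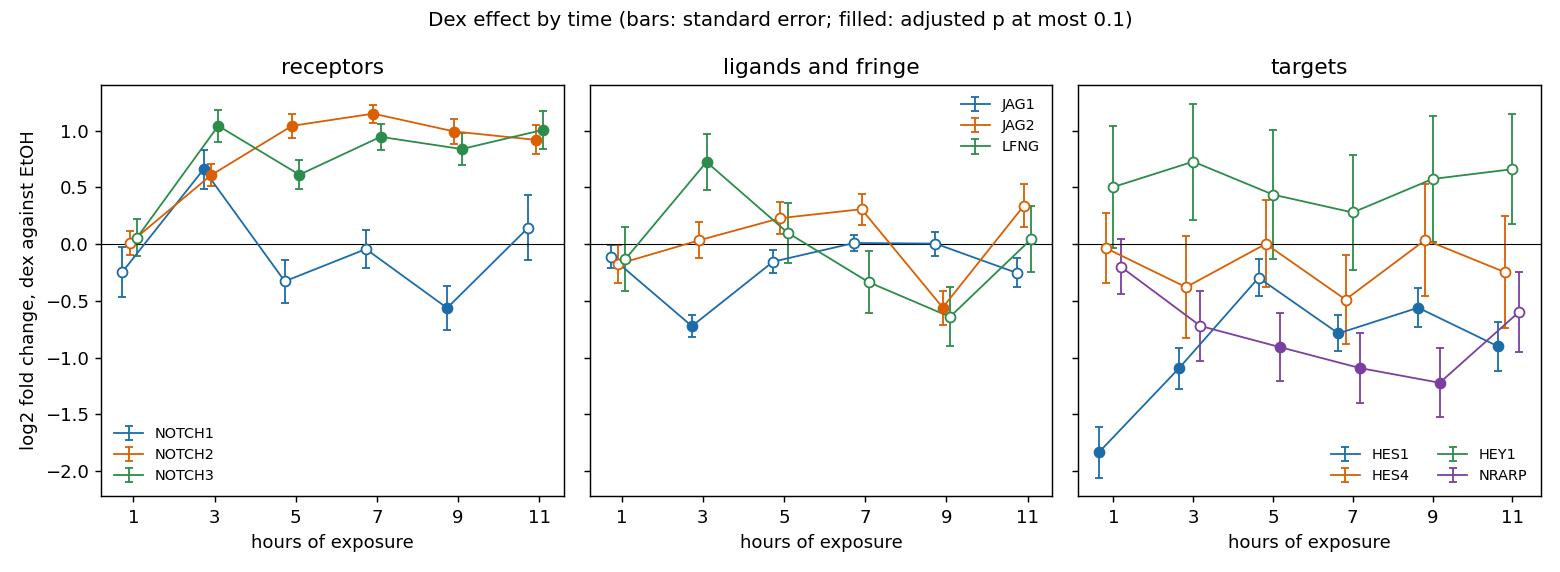
Log2 fold change of dex against EtOH (vertical axis) by hours of exposure for receptors, ligands with LFNG, and targets, with bars of 1 standard error and filled points where the adjusted p was at most 0.1. HES1 starts at -1.83 at 1 h, JAG1 is filled at 3 h (-0.72), and NOTCH2 and NOTCH3 are filled from 3 to 11 h.

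Counted over the 10 genes at 1 h, none was called higher and 1 lower (HES1), beside 0.639% of all tested genes called higher and 0.418% called lower. At 3 h, 4 were called higher (NOTCH1, NOTCH2, NOTCH3 and LFNG) and 2 lower (HES1 and JAG1), beside 8.47% and 5.66%. At 5 h, 2 were higher (NOTCH2 and NOTCH3) and 1 lower (NRARP), beside 12.4% and 12.6%. At 7 h, NOTCH2 and NOTCH3 were higher and HES1 and NRARP lower, beside 14.7% and 13.5%. At 9 h, NOTCH2 and NOTCH3 were higher and 4 genes lower (NOTCH1, JAG2, HES1 and NRARP), beside 10.8% and 8.97%. At 11 h, NOTCH2 and NOTCH3 were higher and HES1 lower, beside 5.80% and 3.33%. At 1 h no member was higher in DESeq2 either, nor at an unadjusted p under 0.05 in edgeR. The median log2 fold change of the 10 genes ran from -0.28 at 9 h to 0.32 at 3 h, against -0.01 to 0.01 over all genes tested.

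Averaged over the 6 times, with 12 dex against 12 EtOH libraries in one edgeR fit, NOTCH2 (log2 0.78 ± 0.04, adjusted p = 3.19e-15) and NOTCH3 (0.74 ± 0.07, adjusted p = 1.6e-08) were higher with dex. HES1 (-0.92 ± 0.07, adjusted p = 4.98e-11), NRARP (-0.80 ± 0.12, adjusted p = 3.48e-06) and JAG1 (-0.22 ± 0.03, adjusted p = 6.92e-06) were lower. Of all genes tested, 16.6% were higher and 19.4% lower in this average. Of the separate values of JAG1, that of 3 h was called in the fits of single time points, and that of 11 h also in the fit over 24 libraries used here (adjusted p = 0.0274). HEY1 had 0.52 ± 0.25 (adjusted p = 0.122), and with the G+C correction 0.53 (adjusted p = 0.0989). NOTCH1 (-0.07 ± 0.12), JAG2 (0.02 ± 0.06), LFNG (-0.05 ± 0.11) and HES4 (-0.20 ± 0.19) did not pass.

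The dex effect differed between time points for 5 of the 10 genes, in the edgeR test of the 5 treatment-by-time terms over 24 libraries, beside 15.6% of all genes. These were NOTCH2 (adjusted p = 7.65e-06), JAG1 (adjusted p = 0.000389), HES1 (adjusted p = 0.00377), JAG2 (adjusted p = 0.0198) and NOTCH3 (adjusted p = 0.0711). With the G+C correction JAG2 was no longer past the threshold (adjusted p = 0.124), and the other 4 were. Without dex, the same 10 genes gave no call for a change over the course. In the EtOH libraries 0.0587% of all genes, 9 in number, changed past the threshold, and of the 10 genes only JAG2 had an unadjusted p under 0.05 in edgeR (0.00118, adjusted p = 0.167). A fit of the 12 EtOH libraries alone called 1 of the 10. The share of all genes called in that fit is not given here, so this count cannot be set beside a background.

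Of 59 other genes of the pathway, 49 were tested. At 1 h none of them was called, while 3 had an unadjusted p under 0.05 in edgeR and DESeq2 also called 0. For 6 of the other genes both dex libraries lay above both EtOH libraries at 1 h, and for 9 below. A lack of overlap between such small groups thus often came without a call. Called higher and lower were 7 and 0 at 3 h, 8 and 5 at 5 h, 11 and 5 at 7 h, 9 and 3 at 9 h, and 3 and 0 at 11 h. The 0 at 3 h stands beside 3 lower at an unadjusted p under 0.05 in edgeR and 0 in DESeq2, and the 0 at 11 h beside 0 in both. These counts lie beside the percentages of all genes given above for each time, and their median log2 fold change ran from -0.06 at 1 h to 0.14 at 11 h. At any of the 6 times, 19 of the 49 were called higher and 10 lower, beside 23.3% and 22.5% of all tested genes. By role, 1 of 3 tested ligands (DNER) was called higher at some time, 5 of 8 genes of the nuclear complex (RBPJ, MAML2, MAML3, EP300 and KAT2B), and among the corepressors TLE3, NCOR1, CTBP2 and SPEN. Called lower at some time were 2 genes of the nuclear complex (MAML1 and KAT2A), 3 corepressors (HDAC1, TLE4 and CTBP1), 2 of 9 proteases (ADAM17 and FURIN), 1 of 4 glycosylation genes (MFNG), 1 of 11 tested genes of ubiquitin and trafficking (DTX4) and 1 of 4 tested HES and HEY genes (HES6). Also called higher at some time were the protease ADAM10, the glycosyltransferase POGLUT1, HES2, and NEURL1B, MIB2, ITCH and DTX3L among the genes of ubiquitin and trafficking. The ligands DLL1, DLL4 and DLK1 and the receptor NOTCH4 were among the 10 with too few counts to be tested.

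DNER, MAML2, NEURL1B and TLE3 were called in one direction, higher, at 3 or more times. TLE3, a Groucho corepressor that HES proteins recruit, had 51.3 and 39.8 CPM with dex against 15.6 and 15.6 CPM with EtOH at 3 h (1.55 ± 0.14, edgeR adjusted p = 8.81e-09), and was called at each later time, with 1.62 ± 0.19 at 11 h (adjusted p = 0.000149). Over the series its 12 EtOH libraries lay between 13.9 and 22.2 CPM. DNER, a non-canonical ligand, had 6.62 and 5.10 CPM against 1.33 and 1.91 CPM at 5 h (1.84 ± 0.31, adjusted p = 6.39e-06) and was called from 5 to 11 h on 8 to 61 counts per library. NEURL1B, a ubiquitin ligase that acts on Notch ligands, was called at 3, 9 and 11 h, with 17.7 and 21.3 CPM against 9.19 and 8.63 CPM at 11 h (1.14 ± 0.21, adjusted p = 0.00381). MAML2, a Mastermind coactivator, was called at 3, 7 and 9 h with log2 fold changes of 0.61, 0.49 and 0.79, and each of these calls was lost when either replicate was left out. With replicate 1 left out the calls of DNER and NEURL1B at 9 h were also lost (adjusted p = 0.132 and 0.274), and so was that of DNER at 11 h (0.72, adjusted p = 0.444). With replicate 2 left out that of DNER at 7 h was lost (0.66, adjusted p = 0.492). With DESeq2 the calls of DNER at 11 h (adjusted p = 0.391), NEURL1B at 9 h (adjusted p = 0.147) and MAML2 at 3 and 7 h (adjusted p = 0.147 and 0.241) were lost. DNER at 11 h was also lost with the length correction (adjusted p = 0.101), and MAML2 at 7 h in the fit over 24 libraries (adjusted p = 0.121).

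**Figure D4:**
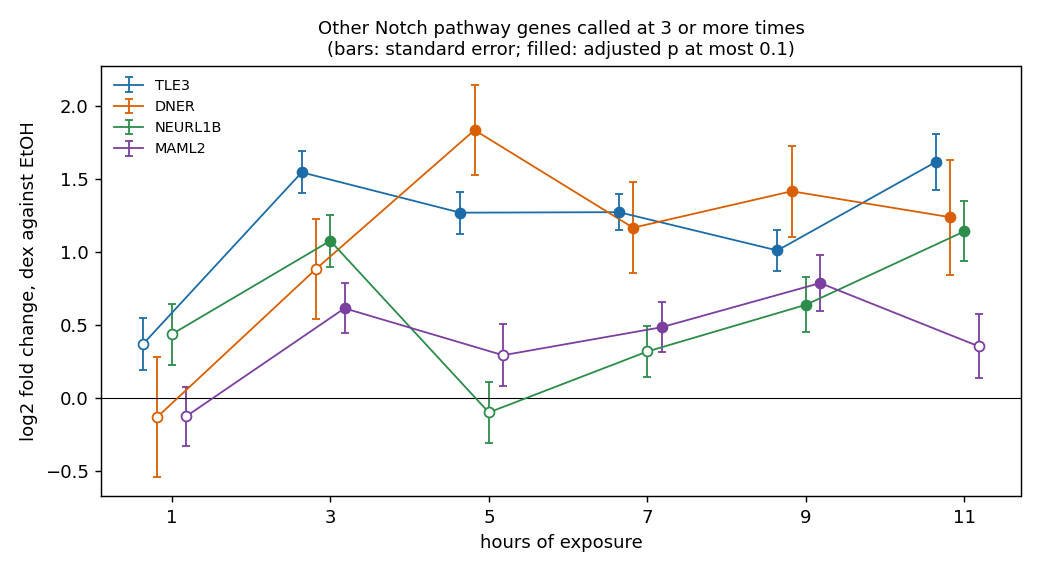
Log2 fold change of dex against EtOH (vertical axis) by hours of exposure for 4 other pathway genes called at 3 or more times, with bars of 1 standard error and filled points where the adjusted p was at most 0.1. TLE3 is filled from 3 to 11 h and DNER from 5 to 11 h, while NEURL1B is filled at 3, 9 and 11 h.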

How the data were processed

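Each deposited value is a count of reads on 1 transcript, made by the authors with Bowtie, which placed short single-end reads from a stranded poly-A protocol on GENCODE transcripts, and SAMtools, which tallied them. The submitters' processing notes name build hg19. How reads matching several transcripts were placed, and whether strand was used, is not given in the sources used here. Triplicates are named in the methods, but the labels show 2 replicates a group.

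Of 119207 transcripts, 110261 (94.1% of the counts) were joined to symbols through GENCODE release 29 (GRCh38) by identifier without version and summed per gene. The 8946 others stayed in the library totals. Genes were kept by filterByExpr over 12 groups and tested with edgeR 4.0.16 (R 4.3.3; TMM, robust quasi-likelihood F-test), each time point by itself, 2 against 2 libraries, with Benjamini-Hochberg adjustment over 15325 genes and a threshold of 0.1. The SE of a log2 fold change is its size over the square root of F. The treatment-by-time, average and EtOH course tests used one fit over 24 libraries. CPM are TMM-scaled over all libraries; lengths are means weighted by counts. The test of a single time point and the treatment-by-time test were tried on simulated data with known changes. The tests of neighbouring steps were not. RefSeq promoters are from GRCh38.p14. The G+C correction shifts each library by the median of genes binned by G+C content; it, the length correction and the tests of steps were chosen after seeing the data. The 10 genes and the lists were chosen with earlier results of these data known. Named genes are the 10, GC targets as a count, and other pathway genes called at 3 or more times in 1 direction; those given by role were named after their values were seen, and some genes of the lists are not reported here. Alternatives were DESeq2 1.42.0, its size factors in edgeR, the replicate block, the fit over 24 libraries, no filter or a minimum of 10 counts throughout, a stricter threshold (0.05), each replicate left out, the most counted transcript, and both corrections. Figures used matplotlib 3.10.9.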

Additional observations from a re-analysis of the deposited data

Results flagged for a closer look

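The dex effect differed between time points for 5 of the 10 genes by the test of the treatment-by-time terms over 24 libraries. For NOTCH2 (adjusted p = 7.65e-06) it was 0.01 at 1 h and 1.15 at 7 h on the log2 scale. For JAG1 (adjusted p = 0.000389) it was -0.72 at 3 h and between -0.25 and 0.01 at the other times. For HES1 (adjusted p = 0.00377) it was -1.83 at 1 h and -0.30 at 5 h. For JAG2 (adjusted p = 0.0198) it was -0.56 at 9 h and 0.34 at 11 h, and the test gave an adjusted p of 0.124 with the G+C correction. For NOTCH3 (adjusted p = 0.0711) it was 0.06 at 1 h and 1.04 at 3 h, and the test gave an adjusted p of 0.0221 with the G+C correction.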

How the results depend on the processing

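Of 920 log2 fold changes recomputed under an alternative, 821 kept their direction and side of the threshold, 49 lost their call, 8 gained one and 42 changed sign. All of the 42 concern values that were not called. Where the cause of a change is not given by the alternative itself, it was not tested.

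With no filter the sign changed for NOTCH2 at 1 h (-0.0143), HES4 at 5 h (-0.0257), and JAG1 at 7 h (-0.000617) and 9 h (-0.0195), and 263 genes were called at 1 h. With at least 10 counts in every library it changed for HES4 at 5 h (-0.00173) and JAG1 at 7 and 9 h (-0.00123 and -0.0128), with DESeq2's size factors for HES4 at 5 h (-0.00179), and in the fit over 24 libraries for HES4 at 5 h (-0.0102) and JAG1 at 7 and 9 h (-0.00562 and -0.0143). That fit called 2472 genes at 11 h. On the most counted transcript alone it changed for NOTCH3 at 1 h (-0.00991), JAG2 at 3 h (-0.0525), HES4 at 5 and 9 h (-0.313 and -0.167), and LFNG at 5 and 11 h (-0.767 and -0.0958). With the G+C correction it changed for HES4 at 1 and 5 h (0.0822 and -0.0994), JAG2 at 3 h (-0.157), JAG1 at 7 and 9 h (-0.00595 and -0.00507), and NOTCH1 and LFNG at 11 h (-0.0688 and -0.103), and 249 genes were called at 1 h. With the length correction it changed for HES4 at 5 h (-0.0376) and JAG1 at 9 h (-0.0337). DESeq2 called 1208 genes at 3 h, 2348 at 5 h, 2468 at 7 h and 1834 at 9 h, and 23 calls of the other pathway genes over the 6 times against 51 in edgeR. Among the 10 genes, the EtOH libraries alone gave 1 call in the EtOH course. By the length of the most counted transcript NOTCH3 had 3.85 and JAG1 81.8 CPM per kilobase with EtOH.

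The study's methods name a paired vehicle control without saying which libraries form pairs. The deviations of same-numbered libraries correlated by 0.23, -0.12, 0.03, 0.00, 0.14 and -0.01 at 1 to 11 h. On these values the replicate numbers were not taken as pairs, though low correlations cannot show that the libraries were unpaired. With the replicate block 584 genes were called at 1 h against 162 without it. At 9 h the block gave 4389 against 3036, and at 3 h 1863 against 2166. The sign of HES4 at 9 h changed with the block (-0.00746), and JAG2 at 7 h (adjusted p = 0.0929) and LFNG at 9 h (adjusted p = 0.0669) gained a call. A crossed pairing at 3 h, chosen after seeing the data, called 3601 genes and 7 of the 10.

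With 1 library left in each arm, assumed to vary like the other groups, the genes called were 76 to 78 at 1 h, 680 to 1282 at 3 h, 1927 to 2174 at 5 h, 1432 to 1736 at 7 h, 1773 to 2148 at 9 h and 1404 to 2477 at 11 h (these fits pool the spread over all times). Of the 10 genes, 3 to 4 were called at 3 h, 1 at 5 h and 3 to 4 at 9 h, and of the other pathway genes 21 to 23 calls were made. Log2 fold changes that spanned 0 were those of NOTCH1 at 1 h (-0.580 to 0.0732) and 11 h (-0.447 to 0.525), NOTCH2 at 1 h (-0.0464 to 0.0712), JAG1 at 7 h (-0.00616 to 0.0144) and 9 h (-0.0650 to 0.0358), JAG2 at 3 h (-0.266 to 0.346), HES4 at 1 h (-0.298 to 0.230), 3 h (-1.39 to 0.471), 5 h (-0.0974 to 0.0770), 9 h (-0.776 to 1.20) and 11 h (-1.25 to 0.337), HEY1 at 5 h (-0.00497 to 1.38), and LFNG at 1 h (-0.449 to 0.0182), 5 h (-0.301 to 0.389) and 11 h (-0.342 to 0.377).

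Depth limits HES4, HEY1, NRARP and LFNG most, with 4 to 81 counts per library.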
